A study of Drosophila melanogaster with 2 samples.

Results

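The germ plasm and germ cell genes described here are 10 Drosophila melanogaster genes chosen by name, osk, vas, tud, aub, nanos, pgc, gcl, ovo, bam and bgcn, out of 13968 protein-coding genes in the annotation. For each gene, every peak entry was taken whose summit lay in the gene body or in the 5 kb upstream, and the gene with the nearest transcription start site (TSS) was recorded. The peaks come from chromatin immunoprecipitation with sequencing (ChIP-seq) of Bicoid, the product of bcd, a maternal homeodomain transcription factor. The 2 libraries, replicates 1 and 3, were made from whole embryos of both sexes, 0 to 24 hours old, from a single transgenic line of strain 1T-GFP that stably expresses bcd with GFP at its C-terminal end, precipitated with an antibody to GFP per the description in the labels, whose antibody field names bcd instead. They form 1 group, so there is no second condition. All cells of the embryo were pooled, and the promoter that drives the fusion is not given in the sources used here.

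Germ plasm is the cytoplasm at the posterior pole of the egg that directs the cells which inherit it to become pole cells, the precursors of eggs and sperm. Oskar assembles it and recruits Vasa, Tudor and Aubergine, and the mRNAs of nanos, pgc and gcl are concentrated in it. Bicoid protein, by contrast, is most concentrated at the anterior pole of the early embryo. The genes ovo, bam and bgcn act in the germ line of the adult gonad, and ovo also has a role in the epidermis of the embryo.

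Of the 10 genes, 9 had a summit of the thresholded peak set in their window, but in 5 of these 9 every such summit lay closer to the TSS of another gene. The authors thresholded that set by irreproducible discovery rate (IDR), and it holds 6054 peaks. Over all protein-coding genes, 41.7% had an IDR summit in the same kind of window. A summit with the gene's own TSS nearest was present for 4 of the 10 genes, vas, gcl, ovo and bgcn, against 23.1% of all protein-coding genes. Among those with any IDR summit in the window, the own TSS was nearest at least once for 4 of 9, against 55.4% over the genome. The genes osk, tud, aub, nanos and bam had IDR summits of their neighbours only, and pgc had no entry at all. The shares of 41.7% and 23.1% cover windows of all lengths, and both rose with window length. None of the 10 genes was in length deciles 1 to 4, which hold the shortest windows.

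Counted by summit, the 9 windows held 15 IDR summits in 14 intervals, of which 4 (26.7%) had the listed gene's own TSS nearest and 11 had a neighbour's. Over all pairs of a protein-coding gene and an IDR summit in its window, the own TSS was nearest in 47.6%. Of the 15 summits, 12 lay upstream of the listed gene and 3 in its body, and 13 (86.7%) lay within 500 bp of some TSS, against 47.0% of all IDR summits. The median distance was 96.0 bp to the nearest TSS of any gene and 2412 bp to the listed gene's own TSS. Windows of 2 or more protein-coding genes held 14 of the 15 summits (93.3%), against 47.7% of all IDR summits. The exception was the summit at ovo. The shares of 47.0% and 47.7% are over all IDR summits, whether or not they lay in the window of a protein-coding gene. The 15 summits were taken from such windows, so these comparisons are not like for like.

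**Figure D1:**
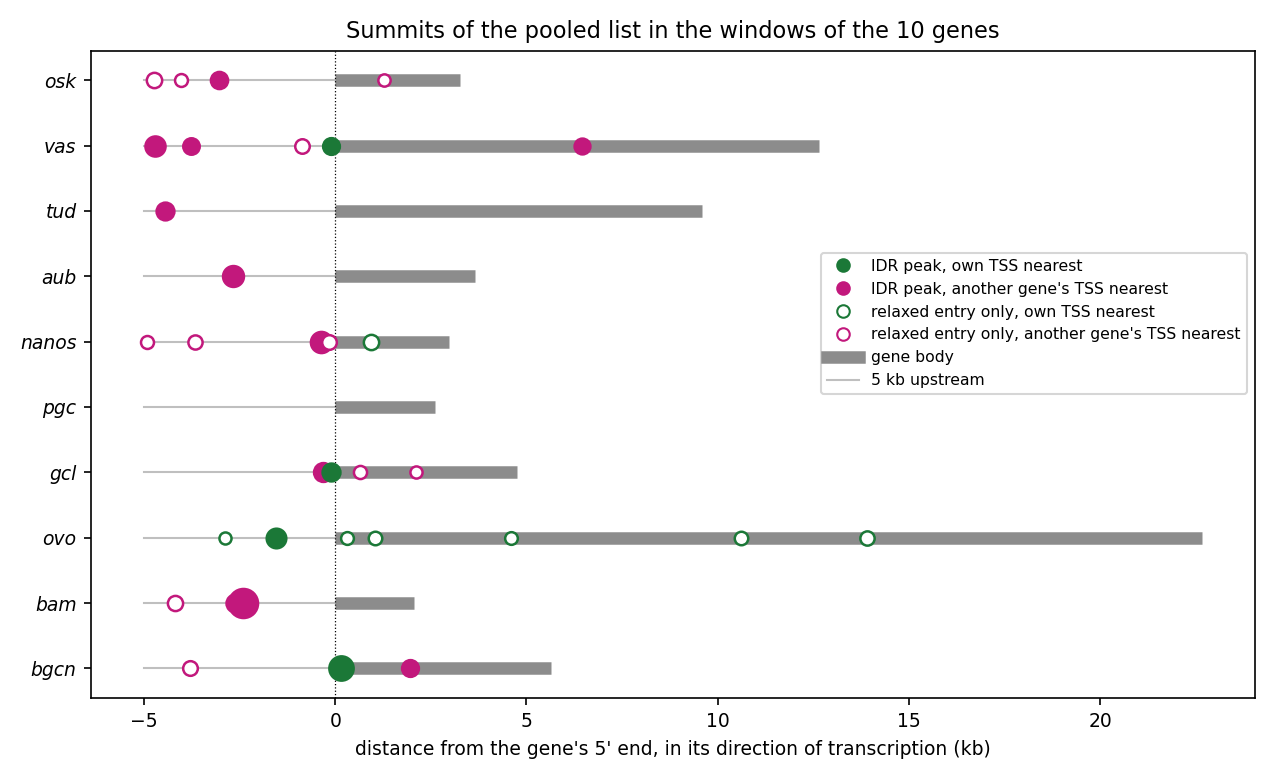
Each row is a gene, drawn from 5 kb upstream of its 5' end (thin line) through its body (thick bar), with the distance in kb along its own direction of transcription. Points are summits of the pooled list, filled where the entry is an IDR peak, coloured by whether the gene's own TSS is the nearest, and larger for a higher signal value; the row of pgc is empty, and the largest point is at bam.

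The values given for each summit are the authors' signal values, scores on the peak caller's own scale, and the rank of that value within its list, with 1 the strongest. They describe and order peaks within a list and carry no error of their own. In the IDR set the signal had a median of 223 and a range of 125 to 4627. The 15 summits had a median signal of 241 and a median rank of 2750, against a median rank of 3028 for the whole set. For each of them the entry of each replicate's list that overlapped by at least 1 bp and had the nearest summit was taken. All 15 had one in both lists, as did 5836 of the 6054 IDR summits. The lists hold no read counts, so depth is unknown, and an entry may be missing from a list for lack of reads.

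Oskar is the protein that builds germ plasm, and its gene osk (FBgn0003015, 3R:8935126-8938395) had no IDR summit near its own TSS. The single IDR summit of its window lay 3041 bp upstream at 3R:8931873-8932296, with a signal of 194 and rank 3595. It was 189 bp from the TSS of pyd, which encodes a junction protein of the ZO-1 family, against 3041 bp from that of osk. Its signal was 116 in replicate 1 (rank 2704) and 83.4 in replicate 3 (rank 4943), so it was among the 6054 strongest entries of both. The pooled list of 30000 entries added 3 more summits. Those with signals of 111 and 43.2 also had the TSS of pyd nearest, at 1521 and 798 bp. The third, with a signal of 32.5 in an intron of osk, was nearest to the start of the noncoding RNA gene lncRNA:osk, 678 bp away. The only entry of any list with the TSS of osk nearest was 1553 bp upstream in replicate 3, with a signal of 19.3 and rank 29386, close to the end of that list. It overlapped no entry of replicate 1 or of the pooled list.

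Vasa is a DEAD-box RNA helicase of germ plasm, and its gene vas (FBgn0283442, 2L:15061656-15074311) held the most IDR summits of the 10 genes, 4, of which 1 was at its own promoter. That summit, at 2L:15061327-15061750, lay 117 bp upstream of the TSS that vas shares with solo, a cohesion gene nested in the same transcription unit, so the peak cannot be given to either gene alone. Its signal was 171 (rank 4215), with 107 in replicate 1 (rank 3004) and 64.7 in replicate 3 (rank 6543). It was thus among the 6054 strongest entries of replicate 1 but not of replicate 3. The strongest summit of the window, at 2L:15056849-15057063 with a signal of 409 (rank 1252), lay in an intron of ck, the gene of an unconventional myosin, 916 bp from the TSS of ck and 4710 bp from that of vas. Its signals were 133 in replicate 1 (rank 2225) and 272 in replicate 3 (rank 960). The other two were at promoters of neighbours on the opposite strand. One lay 33 bp from the TSS of ck (signal 159, rank 4599). The other lay 25 bp from the TSS of vig, the gene nested in an intron of vas (signal 130, rank 5814), at 2L:15067891-15068314. The ranks of the vig summit, 3982 in replicate 1 and 11353 in replicate 3, were further apart in number than those of any other of the 15. The pooled list added 1 summit, 39 bp from the TSS of the elongation factor gene TfIIS, with a signal of 82.7.

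The sequences at the vas promoter and at the ck promoter are shown because they are the own and a neighbouring site of the same window. Both are of build dm6, from the Release 6 assembly, written 5′ to 3′ on the strand of the gene with the nearest TSS, and they hold no annotated exon. Capitals mark the base of the summit in the first and the word TAATCC, the preferred site of Bicoid, in the second.
vas, 2L:15061479-15061599, plus strand: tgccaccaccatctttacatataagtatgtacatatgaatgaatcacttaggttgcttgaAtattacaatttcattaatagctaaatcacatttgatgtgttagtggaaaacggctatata
ck, 2L:15057863-15057955, minus strand: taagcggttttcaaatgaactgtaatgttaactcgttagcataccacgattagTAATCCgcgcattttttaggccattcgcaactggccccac

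Tudor is a scaffold protein of the polar granules that binds Aubergine, and its gene tud (FBgn0003891, 2R:21183322-21192913) had 1 IDR summit, 4455 bp upstream. It lay at 2R:21178655-21179078 in an intron of Pu, the GTP cyclohydrolase gene, 231 bp from the TSS of CG4286. A TSS of Pu was nearly as close, and the summit of the matching entry in replicate 1 lay 241 bp from the TSS of both genes. The signal was 231 (rank 2890), with 126 in replicate 1 (rank 2400) and 107 in replicate 3 (rank 3692). The pooled list and replicate 3 held no other entry in the window. Replicate 1 alone held 2 more. One was at the promoter of tud itself, 40 bp upstream of its TSS, with a signal of 42.9 and rank 9047. The other had a tRNA gene, tRNA:Trp-CCA-2-5, nearest (signal 21.0). Neither overlapped an entry of replicate 3 or of the pooled list.

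Aubergine is a PIWI-family protein that binds piRNAs, and its gene aub (FBgn0000146, 2L:10997819-11001476) had a single entry in each of the 4 lists, always the same one. The IDR peak at 2L:11004023-11004286 had a signal of 490 and rank 934. Its summit lay in the 5' untranslated region of RpL9, 2 bp from a TSS of that ribosomal protein gene and 2679 bp upstream of aub. RpL9 is on the same strand as aub, and its TSS and the nearest one of aub are 2677 bp apart. The signal was 254 in replicate 1 (rank 745) and 235 in replicate 3 (rank 1234).

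Of the 3 genes whose mRNAs are carried in germ plasm, nanos and gcl had IDR summits close upstream, each beside the start of a gene on the opposite strand, and pgc had none. Nanos is the translational repressor that sets up the abdomen and protects pole cells, and its gene nanos (FBgn0002962, 3R:19157238-19160202) had the IDR peak at 3R:19156737-19156988. The signal was 518 (rank 842), with 311 in replicate 1 (rank 515) and 208 in replicate 3 (rank 1489). The summit was 359 bp upstream of the nanos TSS, within 500 bp, but only 67 bp from a TSS of CG11779, in whose 5' untranslated region it lay. CG11779 runs against nanos, the 2 annotated genes overlap, and these starts are 426 bp apart. In the pooled list a further summit between them, 160 bp upstream of nanos (signal 86.5, rank 8813), had another TSS of CG11779 nearest, at 61 bp. The pooled list also held the only summit with the nanos TSS nearest. It lay in an intron, 938 bp downstream of that TSS, with a signal of 110 and rank 6945. It was present in both replicates, at rank 5993 in replicate 1 and rank 8396 in replicate 3. The remaining pooled entries, with signals of 73.7 and 44.6, had CG5835 nearest. The former overlapped no entry of replicate 3. A stretch of 30 bases at the nanos peak is shown on the minus strand, that of CG11779, while nanos itself is on the plus strand. It was chosen because the word TAATCC, in capitals and here read as its reverse complement, had its centre 6.50 bp from the summit.
nanos, 3R:19156858-19156887, minus strand: cgcggcaacatcGGATTAccgacaaaacga

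The gene gcl (FBgn0005695, 2R:8724258-8728999) encodes Germ cell-less, a BTB-domain protein needed to form pole cells. It had 2 IDR summits in overlapping peaks between its own TSS and that of CG14767, which runs the other way and starts 419 bp from it. The one at 2R:8723923-8724346 lay 123 bp upstream of gcl, which was nearest, with a signal of 236 (rank 2817). Its signals were 112 in replicate 1 (rank 2857) and 109 in replicate 3 (rank 3628). The one at 2R:8723823-8724023 lay 96 bp from the TSS of CG14767 and 323 bp from that of gcl, with a signal of 305 (rank 1992). Its signals were 170 in replicate 1 (rank 1512) and 154 in replicate 3 (rank 2326). Both summits were among the 6054 strongest entries of each replicate. The 2 further pooled entries, with signals of 47.9 and 30.2 in introns of gcl, had snoRNA:gcl-a nearest, at 10 and 1463 bp. The former overlapped no entry of replicate 3, and the latter no entry of either replicate.

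The gene pgc (FBgn0016053, 2R:22330200-22332813) encodes a small protein that blocks transcription elongation by RNA polymerase II in pole cells. Its window of 7614 bp held 0 entries in each of the 4 lists. Of all protein-coding genes, 14.0% likewise had no entry of any list in their windows. The nearest IDR summit lay 13306 bp beyond the upstream end of the window, with rank 5288, and had wdp nearest. The nearest entries of the relaxed lists lay 1843 bp beyond the upstream end in the pooled list, 1055 bp in replicate 1 and 992 bp in replicate 3. All 3 had Gp150 nearest, with signals of 30.2, 27.2 and 37.8.

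**Figure D2:**
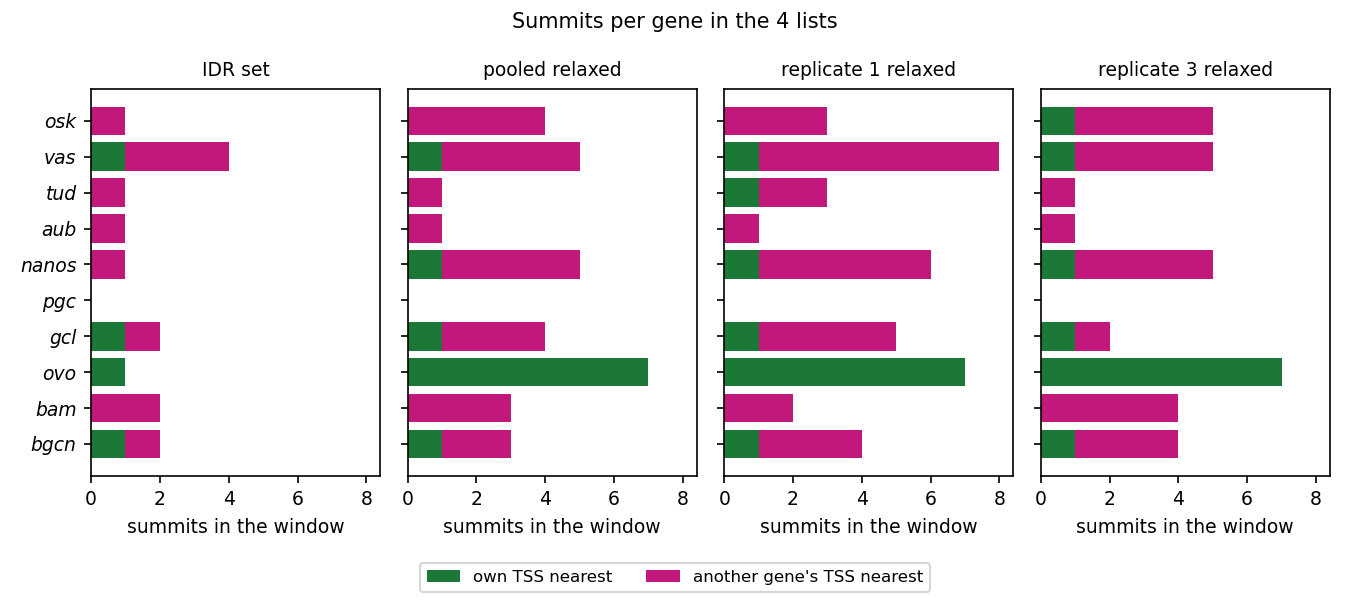
Bars give the number of summits in the window of each gene in each of the 4 lists, split by whether the gene's own TSS (green) or another gene's (pink) was nearest. The bar of ovo is green throughout in all 4 lists, bam and aub have no green part in any, and pgc has no bar.

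The later-acting genes gave both the strongest neighbouring peak and the strongest own peak. Bam and Bgcn are partners that turn the daughter of a germline stem cell towards differentiation. The window of bam (FBgn0000158, 3R:25243039-25245109) held the peak at 3R:25247318-25247889, which has 2 summits. The main one, with a signal of 2081 and rank 28, lay 7 bp upstream of the TSS of the ribosomal protein gene RpS27 and 2412 bp upstream of bam. It had rank 25 in replicate 1 and rank 44 in replicate 3, with signals of 1054 and 1021. The second, with a signal of 241 (rank 2750), lay 70 bp from the TSS of Nup37, a nuclear pore gene that starts on the opposite strand. Its ranks were 2322 in replicate 1 and 2875 in replicate 3. The pooled list added a summit 53 bp from the TSS of Nup358, with a signal of 106. That entry overlapped none of replicate 1 and had rank 12189 in replicate 3. No entry of any list had the TSS of bam nearest. The sequence between the RpS27 and Nup37 starts around the main summit is shown because it carries the strongest peak, with the summit base in capitals.
RpS27, 3R:25247515-25247581, minus strand: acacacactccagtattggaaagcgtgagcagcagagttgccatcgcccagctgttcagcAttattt

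The gene ovo (FBgn0003028, X:5048273-5070929) encodes zinc finger transcription factors, the Ovo proteins of the germ line and Shavenbaby of the epidermis. It differed from the others in having its own TSS nearest to every entry, 1 of 1 in the IDR set and 7 of 7 in each of the pooled, replicate 1 and replicate 3 lists. Its window of 27657 bp is the longest of the 10. The IDR peak at X:5046589-5046857 lay 1551 bp upstream of the TSS, in an intron of lncRNA:CR44833, with a signal of 365 and rank 1484. Its ranks of 1573 in replicate 1 and 1582 in replicate 3, with signals of 165 and 200, were closer together than those of any other of the 15. The other 6 pooled entries were weak, with signals of 28.9 to 76.3, and the strongest of them lay in an intron 1659 bp upstream of an internal TSS of ovo. The entry of 28.9 overlapped none of either replicate, and that of 41.0 overlapped none of replicate 3. A further IDR peak lay just outside, 1569 bp beyond the upstream end of the window, with a signal of 295 and rank 2098, and it too had ovo nearest. The sequence at the peak inside the window is shown because no other gene's start is near it, and the reverse complement of TAATCC is in capitals, 34.5 bp from the summit.
ovo, X:5046662-5046782, plus strand: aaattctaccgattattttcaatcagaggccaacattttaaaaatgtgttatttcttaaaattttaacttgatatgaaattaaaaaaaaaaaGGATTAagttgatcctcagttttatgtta

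The gene bgcn (FBgn0004581, 2R:23853270-23858921) had the strongest peak with the own TSS nearest. At 2R:23858624-23858942 the summit lay 145 bp downstream of its TSS, in the 5' untranslated region, with a signal of 958 and rank 259. Its signals were 414 in replicate 1 (rank 289) and 544 in replicate 3 (rank 251). The other IDR summit of the window, at 2R:23856756-23857179, lay in an intron of bgcn but 32 bp from the TSS of Pym, an exon junction complex gene nested in bgcn. Its signal was 174 (rank 4121), with rank 2978 in replicate 1 and rank 6377 in replicate 3. The remaining pooled entry, with a signal of 87.9, had TBPH nearest, the fly gene of the TDP-43 family.

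**Figure D3:**
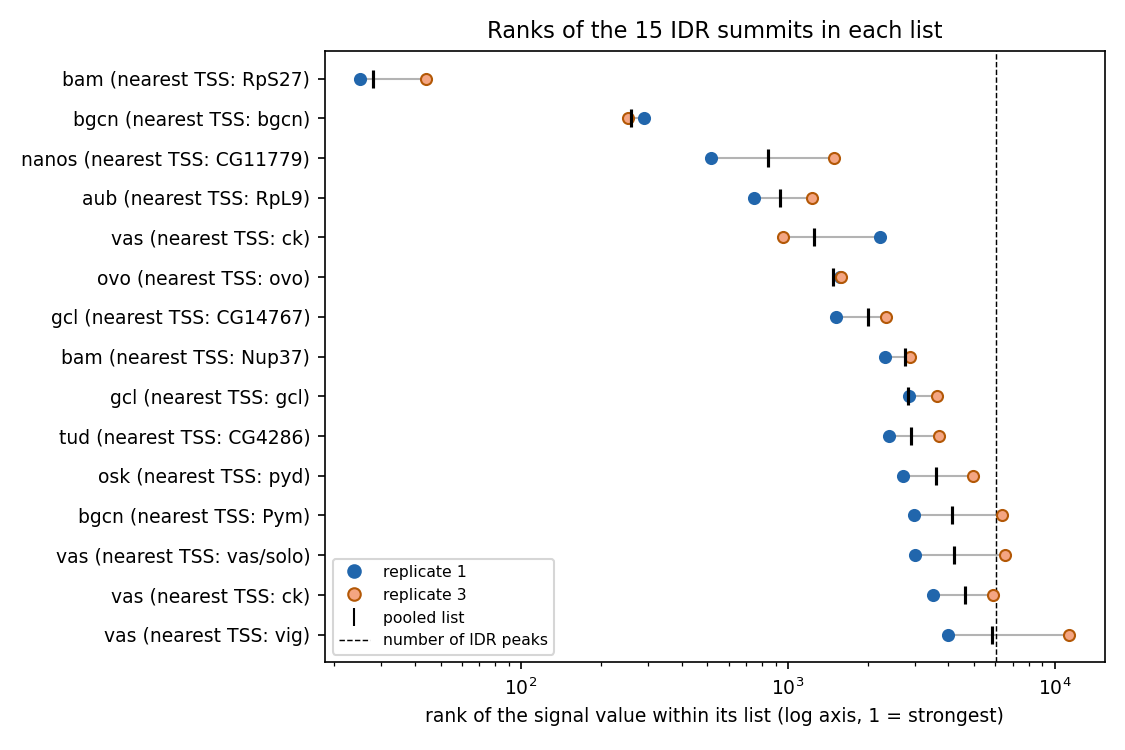
Each row is an IDR summit, with the listed gene and the gene of the nearest TSS, ordered by rank in the pooled list. Points give the rank of the matched entry in replicate 1 (blue) and replicate 3 (orange) on a log axis, black ticks give that in the pooled list, and the dashed line marks rank 6054, which 3 of the summits exceed in replicate 3 and 0 in replicate 1.

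All 15 summits were among the 6054 strongest entries of replicate 1, and 12 were among those of replicate 3. That is 12 of 15 in both, against 68.7% of all IDR summits with an entry in both lists. The 3 outside were those at the TSS of vig, vas/solo and Pym. The rank was better in replicate 1 for 13 of the 15, against 51.0% of all IDR summits with an entry in both lists and 65.4% of those within 500 bp of a TSS. The exceptions were the summit in the ck intron and that of bgcn.

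The relaxed lists were meant by the authors to include background. By gene, the counts in the pooled list were nearer to those of all genes than in the IDR set, while by summit the share with the own TSS nearest stayed below that of all genes. In the pooled list 9 of 10 genes had a summit in the window, against 71.7% of all protein-coding genes, and 5 of 10 had one with the own TSS nearest, against 49.2%. The gene added to the 4 of the IDR set was nanos. By summit, 11 of the 33 pooled summits (33.3%) had the own TSS nearest, against 50.2% over all pairs of a protein-coding gene and a pooled summit in its window. Replicate 1 had 39 summits in the windows, 12 of them (30.8%) with the own TSS nearest, against 49.1% over all such pairs in that list. Here 9 of 10 genes had a summit, against 76.7% of all, and 6 of 10 one with the own TSS nearest, against 53.5%, tud being the addition. Replicate 3 had 34 summits, also with 12 own (35.3%), against 49.6% over all pairs. The counts were 9 of 10 genes, against 73.1% of all, and 6 of 10 with the own TSS nearest, against 49.8%, osk being the addition. Of the 39 summits of replicate 1, 12 overlapped no entry of replicate 3, and of the 34 of replicate 3, 7 overlapped none of replicate 1. The same share over all entries of both lists was not counted, so it is not known whether these counts are high or low.

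Promoters of the listed genes themselves were counted apart from the rest of the window. An IDR summit lay within 500 bp of the own TSS for 4 of 10 genes, against 23.0% of all protein-coding genes. They were vas, gcl, bgcn and nanos, the last with the TSS of CG11779 nearer. In the pooled list the count was 5 of 10, against 44.0%, with ovo added. The percentages were higher for longer windows. In the IDR set, the share of protein-coding genes with a summit in the window was 38.1% in the length decile that holds bam. It went up to 68.6% in the one that holds ovo. With the own TSS nearest, the share was 30.5% in the decile of gcl and bgcn, 40.0% for vas and tud, and 54.7% for ovo. It was 23.3% in the decile of nanos, osk and aub, 19.4% for pgc, and lower for bam. An IDR summit in the gene body was present for 2 of 10 genes, vas and bgcn, against 13.9% of all. The one in vas and 1 of the 2 in bgcn were at the starts of the nested genes vig and Pym. Of the 10 genes, 4 had 2 or more IDR summits in the window, against 16.6% of all, and at each of them, vas, gcl, bgcn and bam, at least 1 of the summits had another gene's TSS nearest. Near the edge of the windows, a nanos entry 4917 bp upstream was inside, and an IDR peak with CG5835 nearest lay 169 bp outside.

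**Figure D4:**
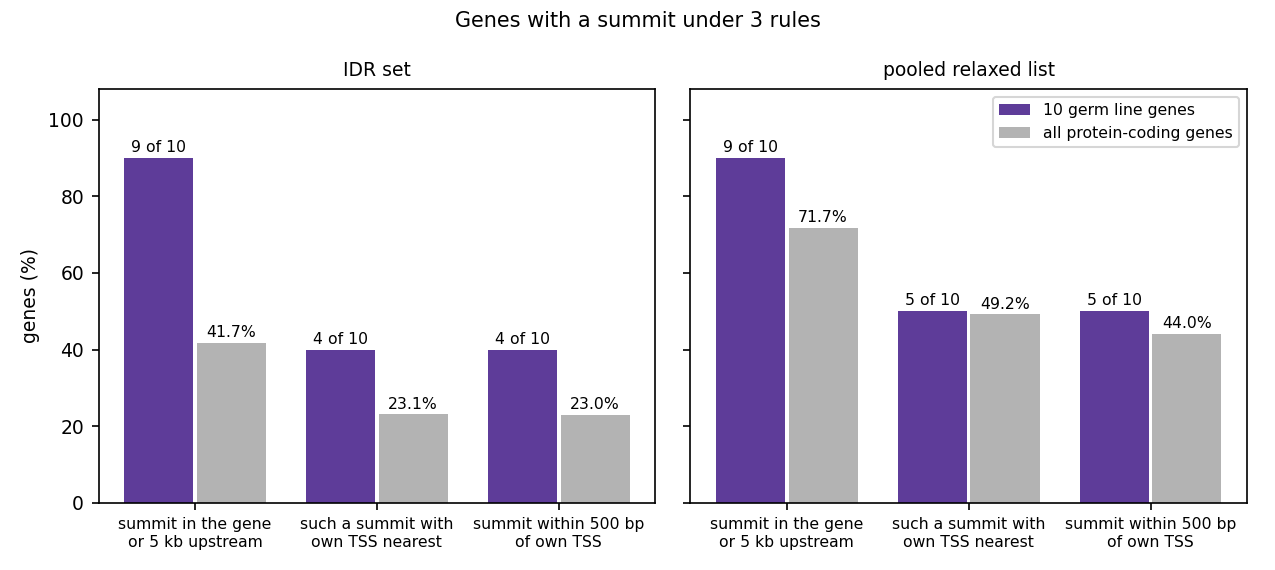
Bars give the percentage of genes with a summit under 3 rules, for the 10 germ line genes (left bar, with the count) and all protein-coding genes (right bar), in the IDR set and the pooled relaxed list. The bars are furthest apart for any IDR summit in the window, 9 of 10 against 41.7%, and nearly level for pooled summits with the own TSS nearest, 5 of 10 against 49.2%.

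The sequence within 100 bp of each summit was searched on both strands for 5 words. TAATCC occurred at 3 of the 15 summits (20.0%), those of nanos, of the ck promoter in the vas window and of ovo, against 6.74% of all IDR summits. In the first 2, the centre of the word lay 6.50 and 4.50 bp from the summit. GGTCACAC, to which the promoter factor M1BP binds, was found at both gcl summits, once near each start, which makes 2 of 15, against 2.59% of all. TATCGATA, the word of the replication-related factor DREF, occurred at the Pym summit in bgcn, 1 of 15, against 3.63%. GAGAGAG, the word of GAGA factor, occurred at the ck intron summit, 1 of 15, against 3.15%, and CAGGTA, the word of Zelda, at 0 of 15, against 3.98%. At least 1 of the words was present at 7 of 15 summits, against 18.5% of all IDR summits. The 2 sets differ in that 86.7% of the 15 lay within 500 bp of a TSS, against 47.0% of all. The words were not counted over IDR summits near a TSS alone. These are matches of letters only, and the summits of a single window are not independent.

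Other genes of the germ line were counted in 4 lists by the same rules. Of 19 genes for germ plasm assembly and mRNA localisation, 16 had an IDR summit in the window and 10 one with the own TSS nearest. The strongest of these were at Hsp83, pum and exu. Hsp83, whose maternal mRNA is retained in pole cells, had a signal of 1025 (rank 219, 99 bp from the TSS). For pum, the partner of Nanos, it was 470 (rank 1007, 610 bp), and for exu, needed to localise bcd mRNA, 292 (rank 2122, 33 bp). The exu summit lay in the 5' untranslated region of galla-1. Of 20 genes of the piRNA pathway, 11 had a summit in the window but 3 one with the own TSS nearest. They were papi, a Tudor-domain gene (signal 855, rank 329, 272 bp), piwi (164, rank 4430, 1111 bp) and moon (130, rank 5821, 2934 bp). The moon summit lay in an intron of Ten-a and had rank 9071 in replicate 1. Of 14 genes for germline stem cells, 9 had a summit and 8 their own. These were led by brat, a translational repressor (948, rank 268, 711 bp), Mad, the Dpp effector (692, rank 497, 674 bp), and Rbfox1 (429, rank 1159, 3133 bp). Of 10 genes for the behaviour of primordial germ cells, 5 had a summit and 4 their own. They were led by zfh1, a transcription factor of the gonadal mesoderm (586, rank 684, 1460 bp). Tre1, a receptor for germ cell migration, came next (534, rank 796, 1106 bp). Then came wun, a lipid phosphatase that guides germ cells (467, rank 1022, 396 bp). Counting each gene once, 41 of 63 had an IDR summit in the window and 25 had one with the own TSS nearest, against 41.7% and 23.1% of all protein-coding genes.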

How the data were processed

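ChIP-seq peak lists from 2 libraries of bcd-eGFP embryos were used. The authors deposited them in narrowPeak format on dm6, per the deposited file descriptions: an IDR-thresholded optimal set, and relaxed lists with background for each replicate and for both pooled, each made with a control alignment. No aligner, peak caller or setting is given in the sources used here. The deposited signal value is a score per peak on the caller's own scale. The deposited −log10 q values are tied at the top and were not used. Positions were counted from 1. All 6054 IDR entries were identical to pooled entries. Fragments were 200 to 800 bp per the labels.

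Genes and TSS (all transcripts) were taken from Ensembl release 115 and sequences from the RefSeq Release 6 genome. A summit was placed in a window of the gene body plus 5 kb upstream and given its nearest TSS over all genes of all types. The computations used Python 3.11.15 with matplotlib 3.10.9 and were tested on simulated summits and words. The members and lists were chosen with earlier results of these data known, and the named genes of the other lists are up to 3 per list with the highest signal among those with their own TSS nearest. For these reasons, and with 1 group, counts are descriptions without a test. The dm3 lists were not used here.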

Additional observations from a re-analysis of the deposited data

How the results depend on the processing

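The number of genes with an IDR summit in the window was 9, and 5 with 2 kb upstream and 2 with the gene body only, since most summits lay upstream. Over all protein-coding genes, 13.9% had an IDR summit in the gene body. The number of IDR summits in the windows was 15, with 8 at 2 kb upstream, 3 in the gene body only and 33 with the whole pooled list. With 10 kb upstream 22 summits and again 9 genes were counted. Any overlap of the interval gave 16 summits and 9 genes. With the 3027 strongest IDR peaks 8 genes had a summit in the window, and 24 of the 63 other germ line genes did, against 41 in the full set. Leaving out each replicate in turn, with the 6054 strongest entries of the other, gave 9 genes both times and 12 to 19 summits. The own TSS was nearest for 3 to 5 genes (25.0 to 26.3% of summits). For 3 to 4 genes a summit lay within 500 bp of the own TSS. Of the other germ line genes, 38 to 43 had a summit in the window. The median over genes of the best rank was 1489 within replicate 3, 1512 within replicate 1 and 1252 within the IDR set. Ranks of different lists are not on 1 scale. Without replicate 1, vas was no longer among the genes with an own summit, and without replicate 3 nanos joined them. Counting 1 TSS per gene gave 5 genes with the own TSS nearest, nanos being added, and protein-coding TSS only gave 4. Within 250 bp of the own TSS, 3 genes had a summit. With 200 bp on either side of the summit, TATCGATA was counted at 2 summits, against 5.65% of all IDR summits, CAGGTA at 1, against 7.91%, and GAGAGAG at 2, against 9.73%. With 50 bp GGTCACAC was counted at 1, against 1.22%, and GAGAGAG at 0, against 1.12%. TAATCC was counted at 3 of 15 (20.0%) with 50, 100 and 200 bp, while its share of all IDR summits was 3.45%, 6.74% and 11.5%. Apart from the gene body and the whole pooled list, shares of all protein-coding genes under the changed rules were not counted. The counts of genes under those rules therefore show only how the numbers of the listed genes moved. Depth is unknown, so a missing entry cannot be told from too few reads.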

Other observations

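The summits in the windows of the listed genes held less A and T than the IDR set as a whole. Within 100 bp of the summit the median was 56.2% (range 43.3 to 73.6, 15 summits), against 65.2% over all 6054 IDR summits. The lowest value was at the nanos and CG11779 starts and the highest at the peak upstream of ovo. The share of summits within 500 bp of a TSS was 86.7% in these windows, against 47.0% in the IDR set. The IDR set was counted whole, whether or not a summit lay in the window of a protein-coding gene. The part of the distance to a TSS in the difference of A and T was not tested.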
